A study of Mus musculus with 10 samples.

Results

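The cardiac muscle genes around Myh7 are 10 rows of a raw read count table of mouse lung libraries: Myh7, its antisense transcript Mhrt, and 8 genes known from heart muscle cells. They were taken by gene symbol, and all 10 were among the 25277 genes of the table. Myh7 was selected on its measured counts, which were low in the flox/flox libraries against the flox/+ libraries, and the other 9 were named to ask whether genes of heart muscle follow it or the locus is read alone. The values of Myh7 in that contrast are therefore a description, and so are those of Mhrt, whose exons share bases with it. Of the 10 genes, 4 passed the filter on low counts (Myh7, Mhrt, Tnni3 and Ryr2), beside 13464 of all genes, and the other 6 were too low to be tested.

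The libraries came from lung cells that the labels call premalignant, about 500 cells per library, amplified with a modified SMART-Seq2 protocol that copies whole transcripts. All groups had been infected with an adenovirus carrying Cre recombinase 12 wk earlier. The APE1 genotypes were compared: flox/N211A, with a mutant allele beside a flox allele (3 libraries), flox/flox (3 libraries) and flox/+, with a wild-type allele beside a flox allele (4 libraries). Apex1 encodes APE1, which cuts DNA at abasic sites during base excision repair, and Cre deletes a flox allele in the cells it reaches. The sources used here give neither the promoter that drives Cre nor the age or any other allele of the mice. They do not say that each library came from a separate animal, so p-values measure the spread between these libraries. In bulk libraries, fewer cells of a type and less RNA per cell cannot be told apart.

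Myh7 encodes the slow or beta myosin heavy chain, the motor of the thick filament in slow skeletal muscle and in the fetal mouse ventricle, and Myh6 encodes the alpha heavy chain, the main form of the adult mouse heart. Both genes lie head to tail on 1 strand, and Mhrt is transcribed from the opposite strand between them and into the 3′ end of Myh7. Heart muscle cells also make troponins, actin, light chains, a calcium release channel and natriuretic peptides, and in rodents a sleeve of heart muscle follows the pulmonary veins into the lung.

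Depth lay between 8955368 and 17070817 counts in flox/N211A, between 10672334 and 53678659 in flox/flox and between 13221853 and 17707731 in flox/+. Epithelial markers stood high in all libraries: the alveolar type II gene Sftpc averaged 36144 ± 1825 CPM (counts scaled to a common depth) in flox/N211A, 16855 ± 4865 CPM in flox/flox and 92928 ± 46669 CPM in flox/+ (SD, n = 3, 3 and 4). Apex1 stood at 7.86, 12.9 and 6.45 CPM in flox/N211A replicates 1 to 3, at 6.02, 0 and 0.573 CPM in flox/flox and at 4.12, 15.9, 35.9 and 54.1 CPM in flox/+, so flox/flox replicate 1 overlapped flox/+. Flox/flox replicates 2 and 3 stood apart: the first had 34.2% of the tested genes at 0 counts, against 2.82% to 16.6% in the other libraries, and the second was the deepest. The Y-linked genes exceeded Xist in flox/flox replicate 2 and in flox/+ replicates 2 and 4, while Xist was the higher in the other 7 libraries.

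Myh7 (chromosome 14, 54970684 to 54994626, minus strand, GRCm38) was read in all 10 libraries, and in flox/flox only in traces. Its counts were 235, 576 and 291 in flox/N211A replicates 1 to 3, 3, 2 and 18 in flox/flox, and 350, 408, 605 and 1644 in flox/+. Scaled to depth these were 21.2, 34.5 and 20.4 CPM in flox/N211A, 0.282, 0.173 and 0.448 CPM in flox/flox, and 26.2, 22.2, 40.1 and 91.3 CPM in flox/+. All flox/flox libraries lay below all others, and flox/N211A overlapped flox/+. A count of 3 in flox/flox replicate 1 corresponds to 0.282 CPM there, so Myh7 was at or under a floor of 3 counts in that library and in replicate 2. Replicate 1 did not stand apart in depth or in genes at 0 counts, but its Apex1 level overlapped flox/+. Per kb of exon, the level averaged 2.95 ± 0.919 CPM in flox/N211A, 0.0350 ± 0.0161 CPM in flox/flox and 5.21 ± 3.70 CPM in flox/+ (SD, n = 3, 3 and 4).

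The 250 bases before the Myh7 start (chr14:54994627-54994876, minus strand, RefSeq, GRCm38.p6) are shown because this is the promoter of the gene that the values below turn on, with the 1 match to the searched G-run motif in capitals.
Myh7: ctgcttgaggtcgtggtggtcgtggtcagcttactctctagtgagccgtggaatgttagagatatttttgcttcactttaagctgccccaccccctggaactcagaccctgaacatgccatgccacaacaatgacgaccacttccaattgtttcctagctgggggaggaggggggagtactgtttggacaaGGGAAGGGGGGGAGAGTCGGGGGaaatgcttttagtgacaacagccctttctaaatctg
The motif was 4 runs of at least GGG parted by 1 to 7 bases of any kind, the letter pattern of a G-quadruplex, searched on both strands of the 250 bases before each start. The match in the Myh7 promoter begins 59 bases before the start at 54994626, on the strand of the gene. RefSeq gives a second Myh7 start at 54994549, whose window held 2 matches, beginning 136 and 73 bases before it, the first of them the same letters. Myh6 had 1 match, GGGAAGTGGGAGGGAGGG, 64 bases before its start, and none was found before the starts of Mhrt, Tnnt2, Tnni3, Actc1, Nppa, Myl7, Myl4 and Ryr2. Thus 2 of 10 genes held the letters (3 of 12 windows, since Myh7 and Tnnt2 have 2 starts each), beside 16.7% of 32851 windows of all genes and 23.9% of 13467 windows of the tested genes. A match is a run of letters, not a measured structure.

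**Figure D1:**
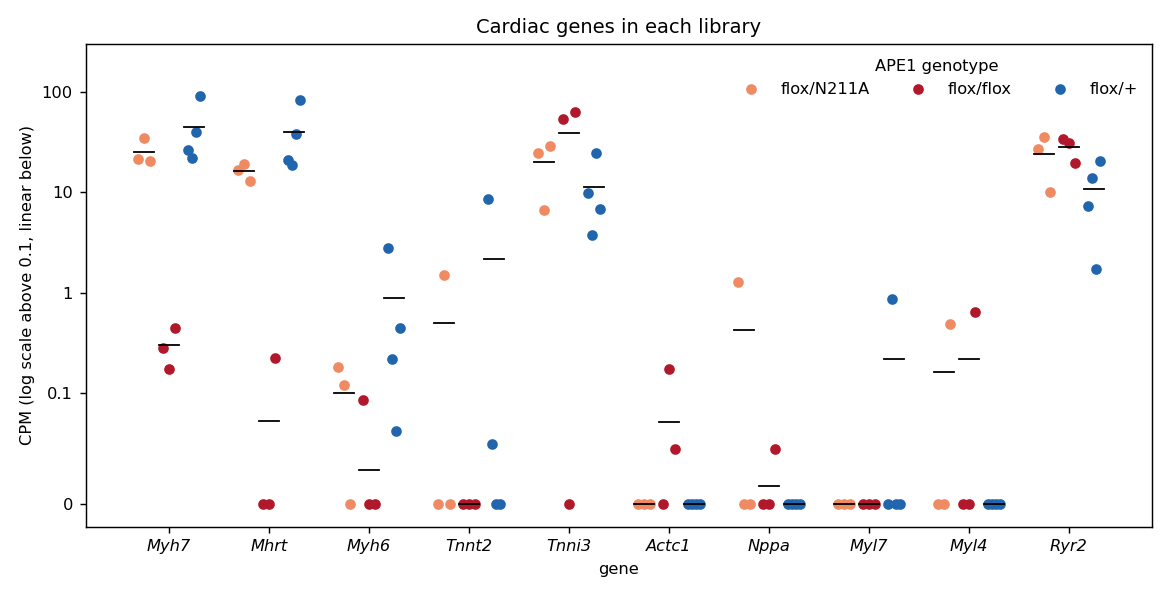
Level of the 10 genes in each library, in CPM on an axis that is logarithmic above 0.1 and linear below, with points for libraries and lines for group means of flox/N211A, flox/flox and flox/+. Myh7 and Mhrt lie below 1 CPM in the 3 flox/flox libraries and above 10 CPM in the other 7, while Tnni3 and Ryr2 do not follow and the other 6 genes are below 10 CPM in every library.

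Mhrt (chromosome 14, 54968678 to 54974349, plus strand), a long noncoding RNA known from the mouse heart as a regulator of the chromatin factor Brg1, had the same pattern. Its counts were 183, 316 and 186 in flox/N211A, 0, 0 and 9 in flox/flox, and 280, 347, 580 and 1483 in flox/+. The flox/flox libraries again lay below all others, at 0, 0 and 0.224 CPM. Of 13463 other tested genes, Mhrt had the pattern most like that of Myh7 (Spearman's rho 0.98 and Pearson's r 0.996 of log2 CPM over 10 libraries, a description with no test).

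The Mhrt and Myh7 rows cannot be told apart as measurements. In GENCODE M21, 484 of the 1214 exon bases of Mhrt, or 39.9%, are also exon bases of Myh7. They make up 5.62% of the 8616 exon bases of Myh7. In the longest Myh7 transcript, of 41 exons and 6230 bases, 463 shared bases begin only after 80.9% of its length, in the 3′ part. The counts of the 2 rows were far closer than those lengths: Mhrt reached 77.9%, 54.9% and 63.9% of the Myh7 count in flox/N211A, and 80.0%, 85.0%, 95.9% and 90.2% in flox/+. The Myh7 count exceeded the Mhrt count by only 52, 260 and 105 in flox/N211A and by 70, 61, 25 and 161 in flox/+. In flox/flox, 0 of 3, 0 of 2 and 9 of 18 left no usable ratio, with a 95% Wilson interval of 29.0% to 71.0% for the last, which covers counting error only.

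The ratio was lower in every flox/N211A library than in every flox/+ library. It averaged 65.6% ± 11.6 in flox/N211A (SD, n = 3) and 87.8% ± 6.81 in flox/+ (SD, n = 4), a difference of -22.2 percentage points. The exact two-sided permutation test gave p = 0.0571, the smallest that 35 arrangements allow, so the design cannot reach 0.05. Leaving out each library in turn gave differences of -28.4 to -16.9 points. The ratio was chosen after the counts were seen, and groups without overlap give this smallest p whatever the gap between them. The p-value and the range are therefore a description.

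Whether a read in the shared bases was counted for both genes depends on the strand and overlap settings, which the sources used here do not give. Some pairs of other genes were read to see what the table does. C1qtnf5, all of whose exon bases lie in those of Mfrp on the same strand, equalled it in 10 of 10 libraries, and Snurf equalled Snrpn in 9 of 10 with sums of 5201 and 5202. On opposite strands, AI507597 inside Tmem82 had the same count above 0 in 5 libraries. Of 11 genes with all exon bases inside a gene on the opposite strand, 10 had counts. Of these 10, 8 did not exceed that gene in any library, Gm28626 exceeded B3gnt7 in 1 and Pdcd2 exceeded Tbp in 9. On the same strand, all 9 such genes had counts and 5 did not exceed the enclosing gene in any library, so exon borders in GENCODE may differ from those used for counting.

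**Figure D2:**
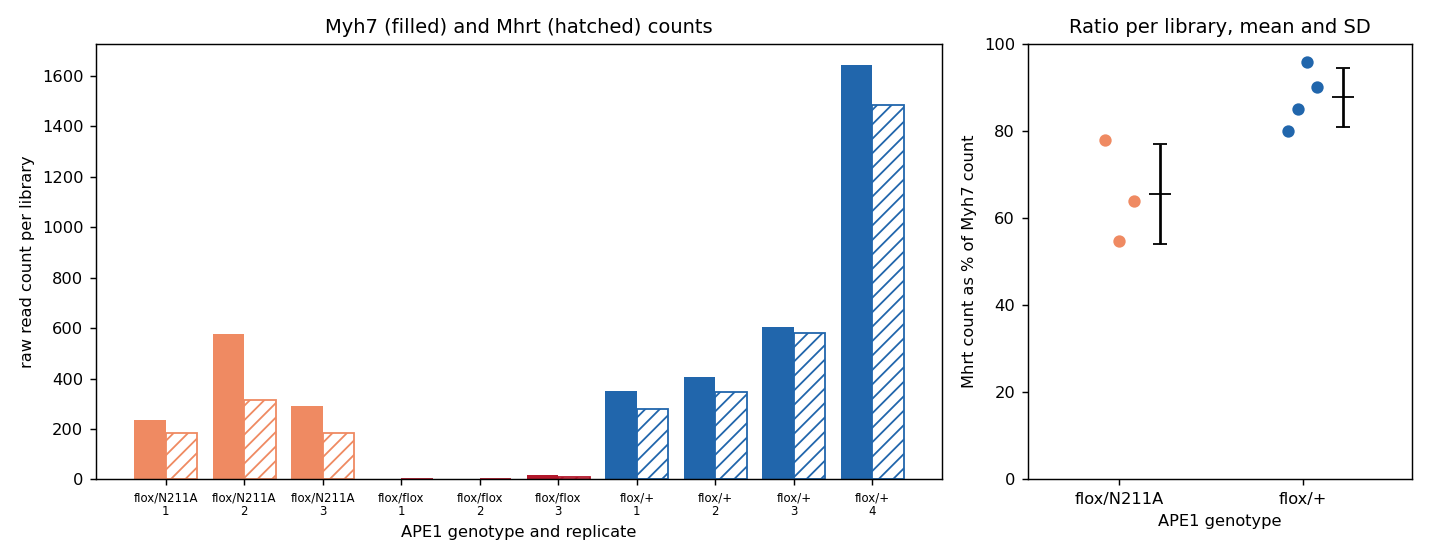
Left, raw read counts of Myh7 (filled bars) and Mhrt (hatched bars) in each library, ordered by genotype; right, the Mhrt count as a percent of the Myh7 count in flox/N211A and flox/+ libraries, with mean and SD. The 2 genes rise and fall together over libraries, and the percents of flox/N211A (54.9 to 77.9) lie below those of flox/+ (80.0 to 95.9).

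Myh6 (chromosome 14, 54941921 to 54966927), which lies 3.76 kb beyond the Myh7 end, was near 0. It had 2, 2 and 0 counts in flox/N211A, 1, 0 and 0 in flox/flox, and 37, 4, 1 and 8 in flox/+. Per kb of exon its mean level was 0.0149 CPM in flox/N211A, 0.00466 CPM in flox/flox and 0.130 CPM in flox/+, below that of the Myh7 row in each. The Myh7 row may hold reads of Mhrt, since it exceeded the Mhrt count by only 70, 61, 25 and 161 in flox/+. These levels therefore do not compare the mRNAs of the myosin heavy chains. The Myh7 and Myh6 transcripts are near copies in part: 22.2% of the 50-base windows and 11.2% of the 100-base windows of Myh7 are found letter for letter in Myh6. The sources used here do not say how reads that map to both were counted, so small Myh6 counts are uncertain.

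Among thin filament genes, Tnnt2 (chromosome 1), the cardiac troponin T that ties the regulatory complex to tropomyosin, was seen in few libraries. It had 0, 25 and 0 counts in flox/N211A, 0 in all 3 flox/flox libraries, and 114, 1, 0 and 0 in flox/+. Actc1 (chromosome 2), the cardiac alpha actin, had 0 counts in all flox/N211A libraries, 0, 2 and 2 in flox/flox and 0 in all flox/+ libraries. Both were at or under 3 counts in every library but 2 of Tnnt2, and flox/+ replicate 1, with the most Tnnt2 and Myh6, had the second lowest Myh7 level of its group.

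Tnni3 (chromosome 7, 4518305 to 4524229), the inhibitory troponin subunit of the heart, was present but did not follow Myh7. It had 274, 111 and 409 counts in flox/N211A, 565, 0 and 2504 in flox/flox, and 131, 69, 375 and 122 in flox/+. These were 24.8, 6.65 and 28.7 CPM in flox/N211A, 53.2, 0 and 62.4 CPM in flox/flox, and 9.81, 3.75, 24.8 and 6.77 CPM in flox/+. Thus 2 flox/flox libraries held the highest levels of all and the third held none, and the groups overlapped. In the libraries where Myh7 had 3 and 18 counts, Tnni3 had 565 and 2504. Spearman's rho with Myh7 over the 10 libraries was -0.21, and Tnni3 ranked 10179 among 13463 genes by likeness. Tnni3 shares 86 exon bases with Dnaaf3, a dynein assembly factor of motile cilia, whose counts were 132, 78 and 64 in flox/N211A, 176, 1062 and 7408 in flox/flox, and 10, 176, 855 and 77 in flox/+. In flox/flox replicate 2 Dnaaf3 had 1062 counts where Tnni3 had 0.

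The atrial light chains were near 0. Myl7 (chromosome 11), the regulatory light chain of the atrium, had 16 counts in flox/+ replicate 2 and 0 in the other 9 libraries. Myl4 (chromosome 11), the atrial essential light chain, had 7 counts in flox/N211A replicate 3, 26 in flox/flox replicate 3 and 0 elsewhere. Nppa (chromosome 4), the precursor of atrial natriuretic peptide, had 14 counts in flox/N211A replicate 1, 2 in flox/flox replicate 3 and 0 elsewhere. No library held counts of all 3.

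Ryr2 (chromosome 13, 11553102 to 12106945), the calcium release channel of the cardiac sarcoplasmic reticulum, which neurons and other cells also make, was read in all libraries. It had 296, 598 and 143 counts in flox/N211A, 359, 359 and 782 in flox/flox, and 98, 253, 26 and 373 in flox/+. Its levels were 26.7, 35.8 and 10.02 CPM in flox/N211A, 33.8, 31.1 and 19.5 CPM in flox/flox, and 7.34, 13.7, 1.72 and 20.7 CPM in flox/+. Flox/+ had the lowest levels and all groups overlapped. Its rho with Myh7 was -0.33, rank 11368 of 13463. Its exons sum to 28.8 kb, so per kb its mean was 0.841 CPM in flox/N211A, 0.977 CPM in flox/flox and 0.378 CPM in flox/+, against 9.71, 18.7 and 5.47 CPM for Tnni3 in the same order.

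In flox/flox against flox/+, the contrast that Myh7 was selected on, edgeR's quasi-likelihood test with Benjamini-Hochberg adjustment called 0 of the 4 tested genes, and 0% of all 13464 genes. The log2 fold changes are given as a description: -7.15 ± 1.29 (SE) for Myh7 and -8.65 ± 1.72 for Mhrt, 1.77 ± 1.44 for Tnni3 and 1.37 ± 1.09 for Ryr2, beside a median of 0.056 over all genes. The Tnni3 value was 0.19 with the Xist class as a term and 2.50 without flox/+ replicate 3, and over all alternatives that of Ryr2 ran from 1.01 without flox/+ replicate 3 to 2.29 with a replicate block. The Mhrt value rests on the 9 counts of flox/flox replicate 3: without that library both remaining flox/flox libraries held 0 counts, and the fitted log2 fold change, which then depends on the prior count and is no bound, was -12.16. In Myh7 and Mhrt the flox/flox libraries lay below all flox/+ libraries without overlap, as they did in 7.19% of all genes, and in 0 of the 4 they lay above, as in 3.44%. An unadjusted p under 0.05 was reached by 14.4% of all genes and by Myh7 and Mhrt among these.

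Fewer genes passed fixed levels on both sides. Of 3574 tested genes at 20 CPM or more in every flox/+ library, 26 (0.727%) were at or under 1 CPM in flox/flox replicate 1, and 2 (0.0560%) were at or under 1 CPM in all 3 flox/flox libraries. These were Myh7 and Tnfrsf23, a decoy receptor of the TNF family, which had 0 counts in each flox/flox library. Tnfrsf23 stood at 8.68, 20.9 and 15.9 CPM in flox/N211A and at 69.7, 21.8, 34.4 and 35.4 CPM in flox/+. Of these 2, only Myh7 was at 20 CPM or more in every flox/N211A library as well. The level of 20 CPM lies just under the lowest Myh7 levels, 22.2 CPM in flox/+ and 20.4 CPM in flox/N211A. Some genes with larger fitted falls than Myh7 missed it in their lowest flox/+ library. Among these were Mhrt (log2 fold change -8.65, at 18.9 CPM), Fn1 (-8.96, at 10.8 CPM) and Qpct (-12.28, at 8.75 CPM). The levels of 20 and 1 CPM and these examples were chosen after the values were seen, so this places Myh7 in the table and tests nothing.

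In flox/N211A against flox/+, the edgeR log2 fold change was -0.82 ± 0.943 (SE) for Myh7 and -1.31 ± 1.20 for Mhrt, and 0.83 ± 1.43 for Tnni3 and 1.15 ± 1.08 for Ryr2, each with a Benjamini-Hochberg adjusted p of 1.00. Without flox/+ replicate 4, the library with the most Myh7, the log2 fold change was -0.21 for Myh7 and -0.69 for Mhrt, and leaving out each library in turn gave -1.11 to -0.21 and -1.53 to -0.69. The test called 0 of the 4 genes, and 0% of all genes were called. DESeq2 called 0 of the 10, of which Tnnt2 and Actc1 were given no adjusted p, and 0.211% of the genes it gave one. An unadjusted p under 0.05 was reached by 0 of the 4 and by 1.43% of all genes. The flox/N211A and flox/+ libraries overlapped in all 4 genes, while 2.64% of all genes lay lower and 3.51% higher in flox/N211A without overlap.

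Flox/N211A against flox/flox uses the same flox/flox libraries that Myh7 was selected on, so its size is not independent. Myh7 had a log2 fold change of 6.33 ± 1.26 (SE) and Mhrt one of 7.34 ± 1.64, with adjusted p-values of 0.266 and 0.286 by edgeR. Without flox/flox replicate 3 the Mhrt value was 10.86, again fitted against 0 counts. Tnni3 and Ryr2 had -0.94 ± 1.55 and -0.22 ± 1.17, with adjusted p-values of 0.854 and 0.959. The test called 0 of the 4 genes and 0% of all genes. Without overlap, Myh7 and Mhrt were higher in flox/N211A, as were 13.0% of all genes, and none of the 4 was lower, as were 5.61%. An unadjusted p under 0.05 was reached by Myh7 and Mhrt and by 12.0% of all genes. DESeq2 called Myh7 and Mhrt in this contrast (adjusted p = 7.56e-13 and 3.06e-09, beside 984 genes or 7.18% of those it gave an adjusted p) and in flox/flox against flox/+ (5.31e-18 and 7.12e-14, beside 1339 genes or 9.99%), so the call depends on the tool. Over all alternatives the adjusted p of Myh7 ran from 7.56e-13 to 0.687 in the first of these and from 5.31e-18 to 0.470 in the second. Without flox/flox replicate 1, edgeR called Myh7 (adjusted p = 0.0231) and Mhrt (0.0311) in flox/flox against flox/+, where it called 399 genes in all. With the same library left out it called Myh7 (0.0401) in flox/N211A against flox/flox, where it called 244 genes in all. Without flox/flox replicate 3 it called Mhrt (0.0403) in flox/flox against flox/+, where it called 11 genes in all. Since Myh7 was selected on these flox/flox libraries and Mhrt shares bases with it, these calls and those of DESeq2 are a description.

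The Myh7 levels are given by Xist class as a description, since they are the values the gene was selected on. Among libraries with Xist above the Y-linked genes, Myh7 stood at 20.4 to 34.5 CPM in the 3 of flox/N211A, at 0.282 and 0.448 CPM in flox/flox and at 26.2 and 40.1 CPM in flox/+. Among the other 3 libraries it stood at 0.173 CPM in flox/flox and at 22.2 and 91.3 CPM in flox/+.

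The genes beside Myh7 were read for comparison. Of 21 genes within 200 kb in the table, 3 were at 0 in all libraries, among them the microRNA genes Mir208a and Mir208b that lie in introns of the 2 myosin genes, and 8 besides Mhrt were tested. In flox/flox against flox/+ their log2 fold changes ran from -1.84 to 1.34 with a median of -0.11, in flox/N211A against flox/+ from -1.54 to 0.41 with a median of -0.53, and in flox/N211A against flox/flox from -2.16 to 1.30 with a median of 0.12. In none of these comparisons did any of the 8 reach an unadjusted p under 0.05. The flox/flox libraries lay below all flox/+ libraries in 0 of the 8, beside 7.19% of all genes, and with 8 genes such a share cannot be told from that background. In flox/N211A against flox/flox, Pabpn1 was higher without overlap, at 64.1 to 94.1 CPM in flox/N211A and 5.11 to 62.7 CPM in flox/flox, as were 13.0% of all genes (log2 fold change 1.30, adjusted p = 0.557 by edgeR). The nearest of the 8, Ngdn, a nucleolar protein gene 20.8 kb beyond the Myh7 start, averaged 22.5 CPM in flox/N211A, 23.5 CPM in flox/flox and 25.3 CPM in flox/+. On the other side, Pabpn1, which encodes the nuclear poly(A) binding protein, averaged 81.3 CPM in flox/N211A, 33.1 CPM in flox/flox and 61.4 CPM in flox/+, and Bcl2l2, an anti-apoptotic gene of the BCL2 family, averaged 12.0, 32.4 and 12.8 CPM in the same order. Homez averaged 4.19, 3.40 and 12.2 CPM in flox/N211A, flox/flox and flox/+, Slc22a17 3.47, 2.17 and 7.27 CPM, Zfhx2 1.02, 4.61 and 2.45 CPM, Thtpa 9.84, 8.05 and 8.67 CPM, and Ap1g2 8.53, 19.6 and 15.9 CPM. The targeted gene Apex1 lies 4.04 Mb from Myh7 on the same chromosome.

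**Figure D3:**
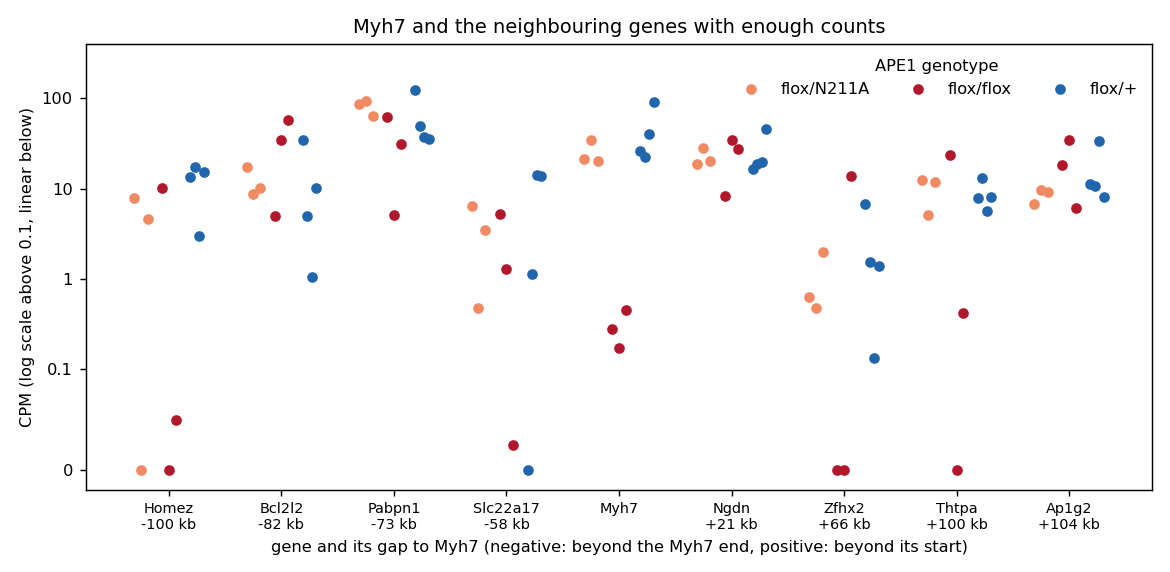
Level in CPM (logarithmic above 0.1, linear below) of Myh7 and the 8 tested neighbours within 200 kb, ordered along the chromosome with their gap to Myh7 in kb, with 1 point per library for flox/N211A, flox/flox and flox/+. Of the genes shown, only Myh7 has all flox/flox points below all flox/+ points, in the contrast it was selected on. Of all tested genes, 7.19% do so.

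Most other genes of the sarcomere were too low to be tested. Of 20 further sarcomere and Z-disc genes, 5 were at 0 in all libraries: Myl2 and Myl3, the ventricular light chains that bind the Myh7 heavy chain, Tnnc1, the troponin C of heart and slow muscle, Myoz2 and Smpx. Of the 7 tested, the edgeR test called 0 in any comparison, DESeq2 called 0, and 0 had an unadjusted p under 0.05. Their median log2 fold change was -1.25 in flox/flox against flox/+, -0.63 in flox/N211A against flox/+ and 0.59 in flox/N211A against flox/flox, beside 0.056, -0.045 and -0.11 over all genes. The highest were Tpm1, a tropomyosin made in most cells, at 384 ± 43.8 CPM in flox/N211A, 548 ± 269 CPM in flox/flox and 595 ± 105 CPM in flox/+, and Nebl, whose nebulette and LASP2 forms bind actin, at 137 ± 28.8, 149 ± 76.4 and 113 ± 55.8 CPM in the same order. Ttn, the giant spring of the sarcomere, had 133, 22 and 71 counts in flox/N211A, 57, 2 and 15 in flox/flox and 49, 160, 119 and 276 in flox/+. Myom1, the M-band protein myomesin, had 49, 20 and 167 counts in flox/N211A, 74, 0 and 3 in flox/flox and 51, 81, 230 and 419 in flox/+. Both were low in flox/flox replicates 2 and 3 but not in replicate 1, where Myh7 was low.

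Calcium handling genes had fold changes of both signs. Of 14, Sln and Gja5 were at 0 in all libraries, 6 were tested and edgeR called 0. Slc8a1 had an unadjusted p under 0.05 in flox/flox against flox/+ (lower) and in flox/N211A against flox/flox (higher), as did 14.4% and 12.0% of all genes. DESeq2 called it in both, beside 9.99% and 7.18% of all genes. Its edgeR adjusted p was 0.331 in the first and 0.386 in the second. Atp2a2, the calcium pump SERCA2 that most cells make, averaged 197 ± 24.7 CPM in flox/N211A, 217 ± 104 CPM in flox/flox and 172 ± 35.7 CPM in flox/+. Slc8a1, the sodium-calcium exchanger, had 116, 75 and 62 counts in flox/N211A, 2, 0 and 2 in flox/flox and 51, 171, 6 and 4 in flox/+. These were 10.5, 4.49 and 4.35 CPM in flox/N211A, 0.188, 0 and 0.0498 CPM in flox/flox, and 3.82, 9.29, 0.397 and 0.222 CPM in flox/+. As in Myh7 and Mhrt, all flox/flox libraries lay below all others, which 7.19% of all genes did against flox/+ and 13.0% against flox/N211A. The lowest flox/+ library stood at 4 counts, next to 2 counts in flox/flox. Kcnj2, an inward rectifier potassium channel, had 244, 15 and 123 counts in flox/N211A, 16, 0 and 0 in flox/flox and 51, 224, 10 and 93 in flox/+. The list's median log2 fold change was -1.56 in flox/flox against flox/+, 0.74 in flox/N211A against flox/+ and 1.89 in flox/N211A against flox/flox.

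Of 10 transcription factors that direct the making of heart muscle, Nkx2-5 and Hand2 were among those at 0 in all libraries and 3 were tested. EdgeR and DESeq2 called 0 and 0 had an unadjusted p under 0.05, with median log2 fold changes of -1.48, 0.46 and 1.94 in flox/flox against flox/+, flox/N211A against flox/+ and flox/N211A against flox/flox. Gata6, which lung epithelium also uses, averaged 71.9 ± 8.90 CPM in flox/N211A, 18.8 ± 16.3 CPM in flox/flox and 52.4 ± 22.2 CPM in flox/+, and Tead1, an effector of the Hippo pathway, 81.6 ± 21.02, 48.7 ± 19.3 and 74.6 ± 20.7 CPM in the same order. Mef2c had 72, 0 and 17 counts in flox/N211A, 0, 0 and 2 in flox/flox and 0, 3, 0 and 17 in flox/+, and Myocd had 182 counts in flox/flox replicate 3 alone.

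Of 7 genes of cardiac energy metabolism, Ckm, the muscle creatine kinase, and Cox8b were at 0 in all libraries, 3 were tested and edgeR called 0, with median log2 fold changes of -2.69, -0.89 and 1.41 in the same 3 comparisons. Cox6a2, the muscle form of a cytochrome oxidase subunit, was the only 1 of the 3 without overlap between flox/flox and flox/+, at 372, 520 and 165 counts in flox/N211A, 94, 188 and 143 in flox/flox and 1550, 403, 1235 and 494 in flox/+. Its log2 fold change in flox/flox against flox/+ was -2.69 with an adjusted p of 0.297 by edgeR, an unadjusted p of 0.0151 and a call by DESeq2. Of all genes, 7.19% lay lower without overlap, 14.4% had an unadjusted p under 0.05 and DESeq2 called 9.99%, so 1 of 3 genes is no result about the list. Cox7a1, another muscle form of an oxidase subunit, averaged 2.81 ± 2.65 CPM in flox/N211A, 2.80 ± 4.83 CPM in flox/flox and 2.24 ± 1.36 CPM in flox/+, and Fabp3, the heart fatty acid binding protein, 2.58 ± 4.31, 0.523 ± 0.906 and 4.77 ± 4.16 CPM in the same order. The myoglobin gene Mb had 54 counts in flox/N211A replicate 1, 4 in flox/flox replicate 3 and 0 elsewhere.

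**Figure D4:**
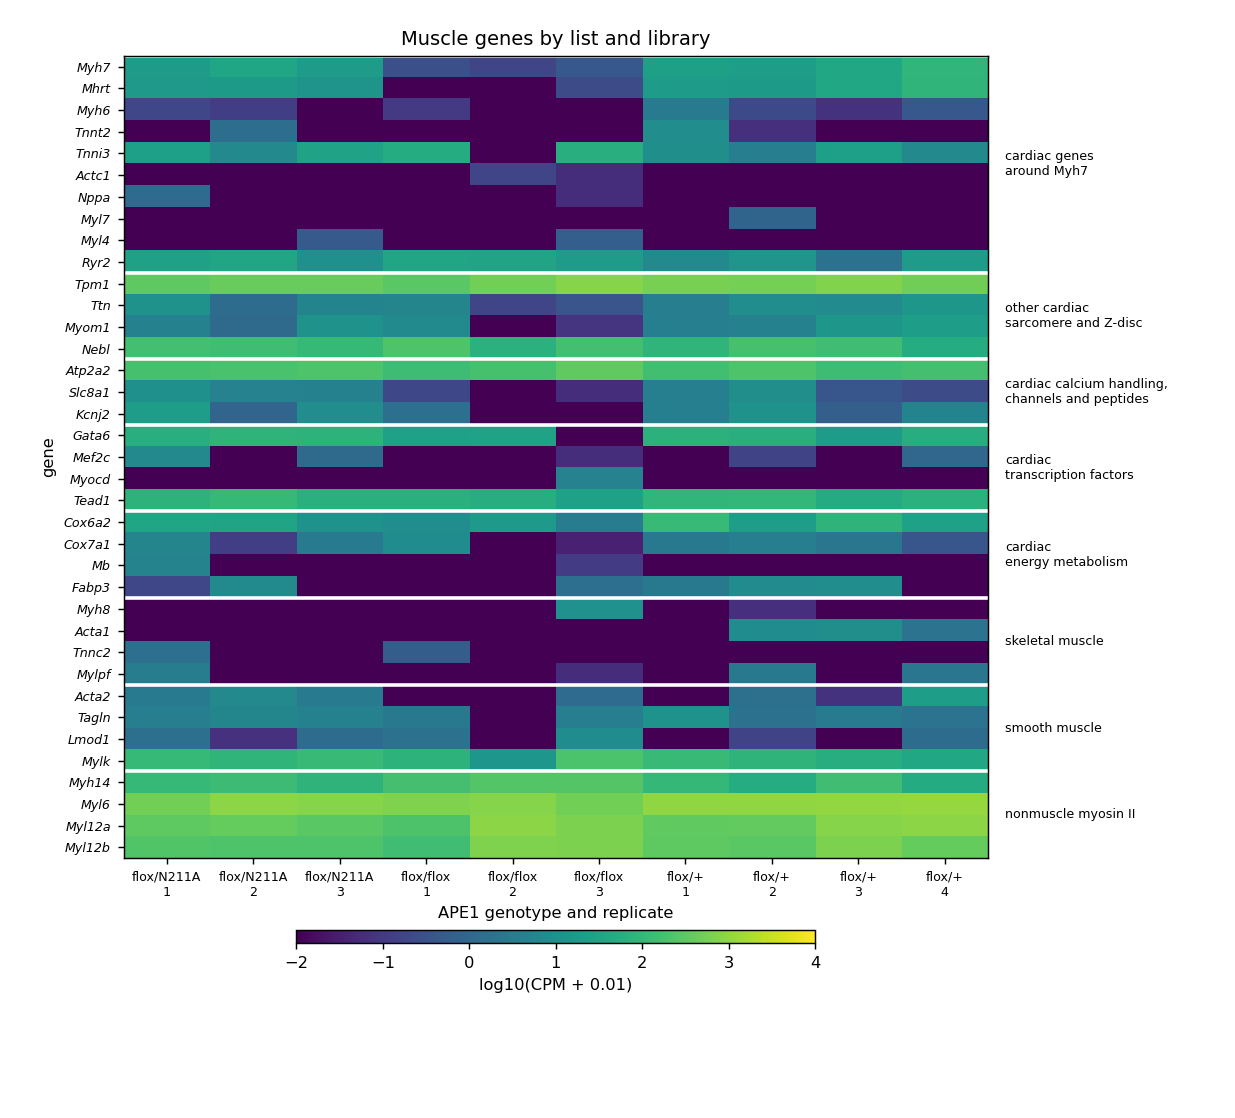
Level of the 10 cardiac genes and of up to 4 of the highest genes of each other muscle list in each library, as log10(CPM + 0.01) in colour, with libraries ordered flox/N211A, flox/flox and flox/+. Slc8a1, like Myh7 and Mhrt, has its flox/flox libraries below all others, at 0 to 0.188 CPM, and many of the other cardiac genes are at or near 0.

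Slow skeletal muscle also uses Myh7, but most other genes of skeletal muscle were at or near 0. Of 20 skeletal muscle genes, 6 were at 0 in all libraries, among them Tnnt1, the troponin T of slow fibres, and Myod1, 2 were tested and edgeR called 0, with median log2 fold changes of -7.38, -4.73 and 2.65 in the same comparisons. Summed over the genes, the level was 0.120 to 8.04 CPM in flox/N211A, 0.0866 to 11.5 CPM in flox/flox and 0.374 to 12.1 CPM in flox/+. Acta1, the skeletal alpha actin, had 152, 137 and 34 counts in flox/+ replicates 2 to 4 and 0 in replicate 1 and in all flox/N211A and flox/flox libraries. It had an unadjusted p under 0.05 in flox/flox against flox/+ (14.4% of all genes) and in flox/N211A against flox/+ (1.43%). DESeq2 called it in flox/flox against flox/+, as it did 9.99% of all genes. Thus 1 of 2 tested genes is no result about the list. Mylpf had 37, 0 and 0 counts in flox/N211A, 0, 0 and 2 in flox/flox and 0, 48, 0 and 40 in flox/+. Myh8, the perinatal heavy chain, had 442 counts in flox/flox replicate 3, 1 in flox/+ replicate 2 and 0 elsewhere, and Tnnc2 17 in flox/N211A replicate 1, 6 in flox/flox replicate 1 and 0 elsewhere.

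Smooth muscle genes were low apart from the myosin light chain kinase gene Mylk, at 100 ± 16.2 CPM in flox/N211A, 95.8 ± 93.6 CPM in flox/flox and 72.5 ± 31.6 CPM in flox/+. Of 10 listed, 5 were tested and edgeR and DESeq2 called 0, with median log2 fold changes of -1.10, 0.015 and 1.12. In each comparison with flox/flox, 1 gene (Smtn) had an unadjusted p under 0.05. Among all genes, 14.4% did so against flox/+ and 12.0% against flox/N211A. Acta2 averaged 4.28 ± 2.11 CPM in flox/N211A, 0.423 ± 0.733 CPM in flox/flox and 6.23 ± 11.3 CPM in flox/+, Tagln 4.53 ± 1.06, 2.08 ± 1.87 and 4.48 ± 4.67 CPM, and Lmod1 1.01 ± 0.833, 3.38 ± 4.47 and 0.374 ± 0.644 CPM. Of the 7 genes of nonmuscle myosin II, the form most cells use, 6 were tested, with 0 called by edgeR or DESeq2. Their median log2 fold changes were 0.11, -0.11 and -0.57. Beside 14.4% of all genes, 1 of these 6 (Myh14, in flox/flox against flox/+) had an unadjusted p under 0.05. Among them Myh14, a nonmuscle heavy chain, averaged 107 ± 25.6 CPM in flox/N211A, 222 ± 47.2 CPM in flox/flox and 86.7 ± 44.2 CPM in flox/+, and its flox/flox libraries lay above all others. Against flox/+ alone, 2 of the 6 lay higher in flox/flox without overlap (Myh14 and Myh10), beside 3.44% of all genes, and 1 lay lower (Myl6, at 515 to 795 CPM in flox/flox and 1018 to 1153 CPM in flox/+), beside 7.19%. Myl6 averaged 749 ± 188, 663 ± 141 and 1072 ± 60.3 CPM in the same order, Myl12a 330 ± 45.0, 603 ± 363 and 614 ± 297 CPM, and Myl12b 224 ± 6.29, 495 ± 301 and 416 ± 167 CPM. Myl9 had 21 counts in flox/N211A replicate 1, 77 in flox/+ replicate 2 and 0 elsewhere.

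Marker lists of other lung cells differed between the same libraries. The summed level of the alveolar type II list (8 genes, all tested) was 46396 to 53249 CPM in flox/N211A, 21829.5 to 30139 CPM in flox/flox and 46595.5 to 179722 CPM in flox/+. This sum, most of it Sftpc and Sftpa1, was lower in flox/flox than in all other libraries, as Myh7 was. Of the 8 genes, 3 lay lower in flox/flox than in flox/+ without overlap, beside 7.19% of all genes. Sftpb had the higher mean in flox/flox, at 2292 CPM against 1061 CPM in flox/+, with overlap. The 4 mesothelial genes together had 6.35 to 29.0 CPM in flox/N211A, 0 CPM in all flox/flox libraries and 0.706 to 36.0 CPM in flox/+, nearly all of it Msln, with Upk3b and Wt1 at 0 in every library. The 10 fibroblast genes together had 23.4 to 157 CPM in flox/N211A, 0 to 39.997 CPM in flox/flox and 16.2 to 156 CPM in flox/+, with Lum at 0 in every library. The 6 club cell genes together had 115992 to 250707 CPM in flox/N211A, 47894 to 207448 CPM in flox/flox and 27714 to 158657 CPM in flox/+, and the 6 ciliated cell genes 1445 to 2620.3 CPM, 2855 to 4502 CPM and 721 to 2193 CPM in the same order. The 8 endothelial genes together had 42.5 to 132 CPM in flox/N211A, 3.98 to 93.6 CPM in flox/flox and 21.3 to 61.8 CPM in flox/+, and the 8 leukocyte genes 14.0 to 144 CPM, 7.81 to 40.6 CPM and 0.132 to 214 CPM. The edgeR test called 0 genes of these lists in any comparison. In flox/flox against flox/+, 4 of 8 alveolar type II genes had a lower level with an unadjusted p under 0.05, as did 1 mesothelial (Msln), 1 fibroblast (Fn1), 1 endothelial (Tek) and 1 leukocyte gene (Cd68), beside 14.4% of all genes in either direction. DESeq2 called 2 of the alveolar type II genes lower and 1 gene of each of the other 4 lists, beside 7.88% of all genes called lower. In the same comparison 4 of 6 ciliated cell genes and 2 of 6 club cell genes had a higher level with an unadjusted p under 0.05, and DESeq2 called 3 ciliated cell genes (Foxj1, Ccdc39 and Hydin) and 1 club cell gene (Cyp2f2) higher, beside 2.11% of all genes called higher. In flox/N211A against flox/+, DESeq2 called the fibroblast genes Col1a2 and Pdgfra higher, beside 0.211% of all genes in either direction. Pdgfra had 105, 1119 and 0 counts in flox/N211A replicates 1 to 3. In flox/N211A against flox/flox, DESeq2 called Col1a2, Pdgfra, Fn1, Pecam1, Cd68 and Msln higher and Rsph1 lower, beside 7.18% of all genes in either direction. The part of these differences in the Myh7 levels was not tested.

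The genes most like Myh7 over the 10 libraries, after Mhrt, were Mpzl3, which encodes a membrane protein related to myelin protein zero (rho 0.98), Qpct, which encodes glutaminyl cyclase (0.98), Gm20036 (0.97) and 2610524H06Rik (0.96). Qpct had 33, 291 and 26 counts in flox/N211A, 0 in all flox/flox libraries and 302, 161, 515 and 1467 in flox/+. Mpzl3 had 24, 228 and 56 counts in flox/N211A, 1, 0 and 3 in flox/flox and 118, 129, 219 and 643 in flox/+. Like Myh7 and Mhrt, both were highest in flox/+ replicate 4 and, within flox/N211A, in replicate 2. These genes were picked as the most alike of 13463, so the likeness carries no test.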

How the data were processed

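RNA sequencing of 10 libraries was used. The submitters' processing notes name Trim Galore 0.5.0, HISAT2 2.1.0, featureCounts 1.6.4, DESeq2 and the build mm10. The deposited values were raw counts per gene symbol without normalization. The sources used here do not give the annotation, strand or multi-mapping settings. The labels gave each library's genotype and replicate number, and 0 columns were left over.

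Counts were filtered with filterByExpr on genotype in edgeR 4.0.16 (R 4.3.3), scaled by TMM, and fitted over all 10 libraries with a quasi-likelihood model whose single term was genotype. Tests were two-sided with Benjamini-Hochberg adjustment over 13464 genes and a threshold of 0.05. The common biological coefficient of variation was 1.24. CPM uses TMM-scaled totals. List medians are of edgeR log2 fold changes over tested genes. The scripts were tested on simulated data with less spread than these libraries have, which does not show what the fit can recover here. Likeness to Myh7 used log2 CPM with a prior count of 2. Intervals and floors of 3 counts cover counting error only, since reads carry no molecular identifiers, and depth, from 8955368 to 53678659 counts, sets them. No replicate pair agreed within sampling noise. Coordinates are from GENCODE M21, which held 24418 of the 25277 symbols (96.6%), and promoters from RefSeq. The alternatives were DESeq2 1.42.0, RLE factors, no filter, only the genotypes compared, a replicate block, the Xist class as a term, and libraries left out. Percentages of all genes called by DESeq2 are shares of the genes it gave an adjusted p.

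The 10 genes and the gene lists were chosen with earlier results of these data known. Named were the 10 genes, Apex1, up to 4 of the genes of highest mean CPM in each list, genes within 200 kb of Myh7 and the 5 genes most like it by rank correlation. Some genes of the lists are not reported here. Of genes picked for the cell type lists beyond muscle, only those a result turns on are named. Tnfrsf23, Dnaaf3, the enclosed gene pairs and some genes at 0 were chosen after their values were seen.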

Additional observations from a re-analysis of the deposited data

Results flagged for a closer look

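In the 4 flox/+ libraries, 6 of 16 quantities examined had 1 library whose gap to the next was larger, as a share of the range, than Dixon's 95% critical value. That value flags about 1 in 20 groups of normally distributed values, which counts near 0 are not, so the flags are a description. Myh6 had a gap share of 0.860, with flox/+ replicate 1 at 2.77 CPM and the next library at 0.444 CPM. Tnnt2 had a share of 0.994, with the same library at 8.54 CPM against 0.0543 CPM. Myl7 had a share of 1, with flox/+ replicate 2 at 0.869 CPM and the others at 0, which fixes the share. Among the neighbours, the shares were 0.871 for Ap1g2 in replicate 3, at 33.6 CPM against 11.3 CPM, 0.901 for Ngdn in replicate 4, at 46.1 CPM against 19.6 CPM, and 0.846 for Pabpn1 in replicate 1, at 123 CPM against 49.1 CPM. Myh7 and Mhrt were not among the flagged.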

How the results depend on the processing

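The edgeR test called 0 of the 10 genes in each comparison. In flox/flox against flox/+, 2 (Myh7 and Mhrt) were called by DESeq2 and with no filter on low counts, 1 (Mhrt) without flox/flox replicates 2 and 3 together, where the single library left is taken to vary as the others do, and 0 to 2 with each library left out in turn, the 2 without flox/flox replicate 1 and 1 without replicate 3. In flox/N211A against flox/flox, 2 were called by DESeq2 and with no filter, and 0 to 1 with each library left out, the 1 without flox/flox replicate 1. In flox/N211A against flox/+, 0 were called under each alternative run. The all-gene count of 0 moved with the same settings: DESeq2 called 1339, 32 and 984 genes in flox/flox against flox/+, flox/N211A against flox/+ and flox/N211A against flox/flox, no filter gave 196, 13 and 96, and leaving out flox/flox replicate 1 gave 399 in the first and 244 in the last. With 2 flox/flox libraries left out the counts were 49 and 16. The causes were not tested. Myh7 kept its direction under all alternatives, from -7.55 to -6.56 in flox/flox against flox/+ and from 6.04 to 6.74 in flox/N211A against flox/flox (log2), with adjusted p-values of 5.31e-18 to 0.470 and 7.56e-13 to 0.687. With a replicate block Tnni3 stood at 0.87 in flox/flox against flox/+. Tnni3 reversed to -0.77 in flox/N211A against flox/+ with the Xist class as a term, and Ryr2 to 0.14 in flox/N211A against flox/flox, where leaving out each library gave -0.62 to 0.15, the highest without flox/N211A replicate 3. Same-numbered libraries correlated between -0.065 and 0.098 in their deviations. Libraries of different numbers were not compared in this way, so whether replicate numbers mark pairs was not tested. With a replicate block 0 of the 10 genes and, in flox/flox against flox/+, 1 of all genes was called. Of the 10 genes, 6 had too few counts to be tested. The deepest library, flox/flox replicate 3, had 0 counts of Myh6, Tnnt2 and Myl7, and whether depth sets these counts was not tested.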
